A study of Mus musculus with 6 samples.

Results

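Interferon-stimulated genes are genes whose transcription goes up when a cell senses an interferon. A list of 39 mouse interferon-stimulated genes was followed across 3 gates of epithelial cells from the thymus, the organ in which T cells develop. The members were found by the gene name of the array's probes, older synonyms included. All 39 had a probe, 62 probes in all, out of 28032 named genes on 41174 probes. A probe that the files call Gbp4, which is also an older synonym of Gbp3, was left out because its accession belongs to Gbp4. All 39 members passed the filter on dim probes, as did 18221 genes in all, and between 36 and 39 of them were well above background on each array.

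The cells came from C57BL/6 mice aged 4 weeks that all carried the transgene Tg(Meis1-EGFP)FO156Gsat/Mmcd, a bacterial artificial chromosome in which Meis1 regulatory sequence drives EGFP. Meis1 is a homeodomain transcription factor. Cells that lacked the leukocyte antigen CD45 and carried the epithelial adhesion molecule EpCAM were divided into a Meis1-high gate (bright EGFP, low forward scatter), a Meis1-low gate (intermediate EGFP, high forward scatter) and a Meis1-negative gate (no EGFP, low forward scatter). There were 2 pools of 6 mice per gate, which gave 6 one-colour arrays made from 10 ng of RNA each. Between Meis1-low and the other gates, EGFP brightness and cell size differ together and cannot be told apart. No mice without the transgene were analysed here, and the labels name no interferon treatment or infection.

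Type I and type III interferons act through receptors that engage Janus kinases, and these activate STAT proteins, among them STAT2, which join IRF9 to form the factor that binds the interferon-stimulated response element. Type II interferon acts mainly through the gamma-activated site. Many of the induced genes encode antiviral proteins, and others encode the sensors, STATs and IRFs of the pathway itself. In the mouse thymus, mature medullary epithelial cells are known to make interferons without an infection, and developing and stromal cells of the thymus sense them.

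The promoters of the members were searched for both motifs, because these are the sites through which the list is known to be induced. The RefSeq windows (GRCm38.p6) hold the 250 bases before and the 50 bases after each gene's start, and 31 of 39 members had one. Those without were Dhx58, Zbp1, Oas2, Mx1, Mx2, Usp18, Rtp4 and Parp14. The core of the response element was searched as GAAANNGAAA and the core of the gamma-activated site as TTCNNNGAA, on both strands, where N is any base. The response element core was found in 17 of the 31 members, and in 3.99% of 27025 genes. It lay wholly before a start in 13 of these members and at or after the start in the other 4. The members with it were Bst2, Ddx58, Eif2ak2, Gbp2, Gbp3, Ifih1, Ifit1, Ifit3, Ifitm2, Ifitm3, Igtp, Irgm1, Isg15, Oas1a, Oas3, Rsad2 and Stat2. The gamma-activated site core was found in 10 of 31 members, against 9.55% of all genes. In 5 members both motifs were present, and in 2 of these they overlapped. A match of letters is a description of the window and not a measured binding site.

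The sequence is shown for 5 of the members with a response element core wholly before the start. It runs from 20 bases before the farthest core to the last base before the start. The 5 are Stat2, Ifit3, Ifitm2, Igtp and Irgm1, the members with such a core that the naming rule given below names. Each is written 5′ to 3′ on the strand of the gene, with the response element cores in capitals.
Irgm1 (chr11:48871421-48871470, minus strand): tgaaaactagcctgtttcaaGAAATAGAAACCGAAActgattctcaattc
Ifit3 (chr19:34583353-34583528, plus strand): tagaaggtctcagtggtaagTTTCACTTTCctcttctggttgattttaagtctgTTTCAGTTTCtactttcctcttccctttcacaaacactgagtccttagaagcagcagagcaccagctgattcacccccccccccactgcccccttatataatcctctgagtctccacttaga
Ifitm2 (chr7:140955962-140956027, minus strand): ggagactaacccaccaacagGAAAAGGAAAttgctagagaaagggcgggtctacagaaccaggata
Igtp (chr11:58199502-58199555, plus strand): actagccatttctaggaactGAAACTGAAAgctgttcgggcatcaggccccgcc
Stat2 (chr10:128270256-128270497, plus strand): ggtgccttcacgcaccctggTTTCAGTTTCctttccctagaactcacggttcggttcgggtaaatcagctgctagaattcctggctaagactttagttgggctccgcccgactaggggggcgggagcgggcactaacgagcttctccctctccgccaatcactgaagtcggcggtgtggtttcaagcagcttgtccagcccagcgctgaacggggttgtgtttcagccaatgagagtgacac
In Irgm1 the 2 cores overlap and lie 30 and 24 bases before the start, in Ifit3 they lie 156 and 122 bases before it on the other strand, and in Igtp the single core lies 34 bases before it.

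A level is the log2 signal minus that of the array's 75th percentile, which lay between 73.3 and 165.2 signal units, and each array had 53.1% to 69.6% of its spots well above background. Replicate 1 of every gate shared a slide and a scan, and so did replicate 2. Across 18221 genes, which are not independent replicates, the replicate arrays correlated at a Pearson r of 0.904 for Meis1-high, 0.921 for Meis1-low and 0.839 for Meis1-negative. Meis1 itself had levels of 0.24 and 0.12 in Meis1-high, against -2.35 and -1.61 in Meis1-low and -3.20 and -0.99 for Meis1-negative. The epithelial marker Epcam was well above background on all 6 arrays. Thymocyte markers set the Meis1-negative arrays apart: the median level of 19 such genes was 3.21 on replicate 1 and -0.29 on replicate 2, and between -1.98 and -1.71 on the other 4 arrays. On that same replicate 1 the 14 epithelial markers had a median level of 0.62, against 2.63 to 3.65 elsewhere. Since the labels give 2 pools per gate and nothing further on them, p-values measure only the spread between these pools, and 2 arrays against 2 cannot reach an exact permutation p below 0.333 (two-sided).

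Both Meis1-high arrays lay above all 4 other arrays for 19 of 39 members, against 12.8% of all genes tested, and below them for 0 members, against 12.3% of all genes. The 19 were the regulators Irf7, Irf9 and Stat2, the sensor Ddx58, the effectors Oas3, Oasl2, Ifit3, Mx1, Cmpk2, Isg15, Ifitm2 and Ifitm3, the GTPases Gbp3 and Irgm1, and Isg20, Ifi44, Ifi35, Rtp4 and Xaf1. The median level of the 39 genes reached 1.33 and 1.95 in Meis1-high, against 0.59 and 0.67 in Meis1-low and 0.52 and 1.35 for Meis1-negative. The second Meis1-negative array therefore lay about as high as the first Meis1-high array. In a bulk sample, fewer expressing cells and less RNA per cell cannot be told apart.

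**Figure D1:**
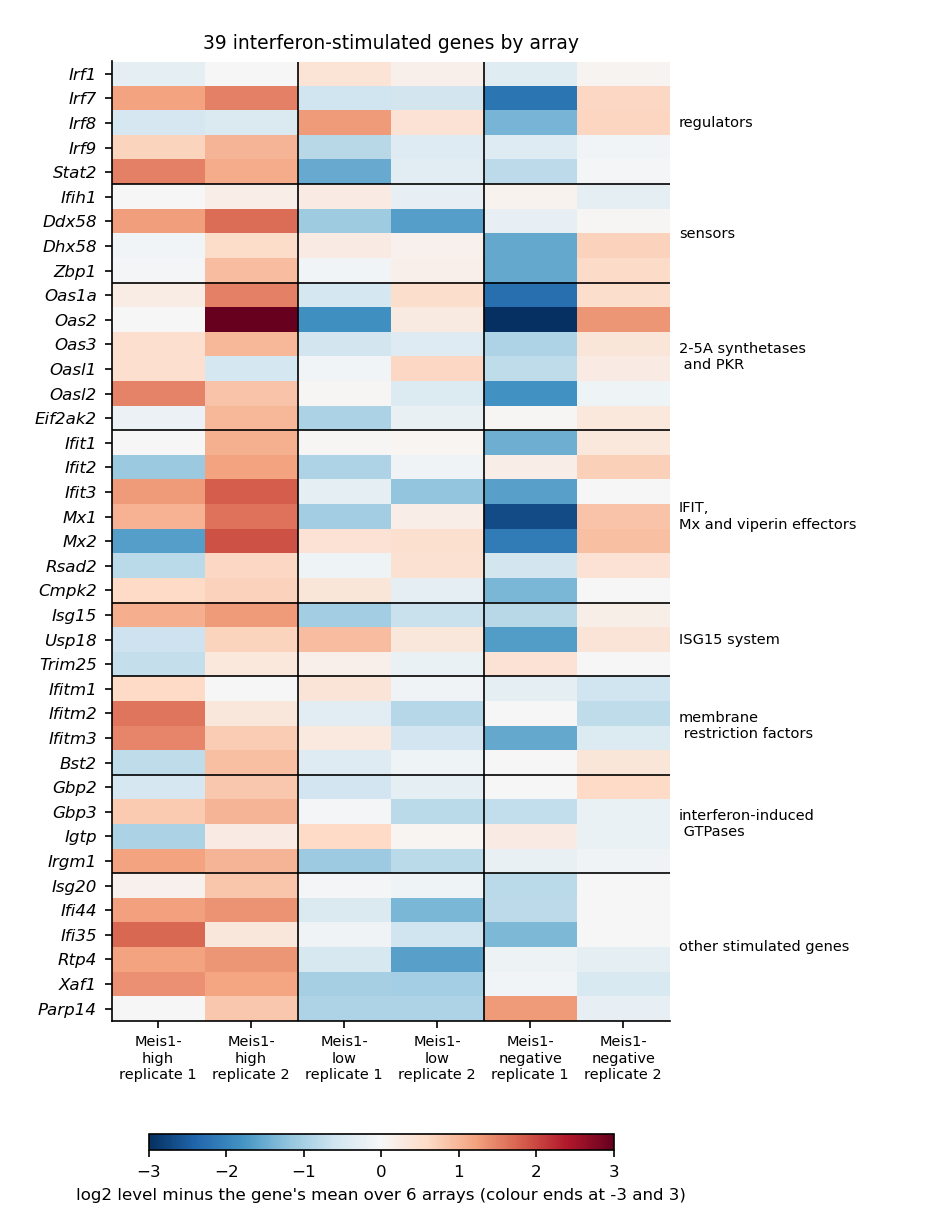
Log2 levels of the 39 interferon-stimulated genes (rows, grouped by role) on the 6 arrays (columns), each shown relative to the gene's own mean over the 6 arrays, with red above and blue below that mean. Red is frequent in the 2 Meis1-high columns, the Meis1-low columns are mostly pale or blue, and the Meis1-negative columns differ from each other, replicate 1 being the bluer.

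The first comparison was between Meis1-high and Meis1-low cells. Of the 39 genes, 31 were higher in Meis1-high, against 44.7% of all genes, and the median log2 difference was 1.0, against -0.15 over all genes. The slides gave medians of 0.78 and 1.23, and 26 members were higher and 2 lower on both. No single member passed the threshold: limma called 0 of 39 members and 0% of the 18221 genes at an adjusted p under 0.05, and 2357 genes had an unadjusted p under 0.05. The smallest adjusted p among the members was 0.250, for Ddx58. Unadjusted, 9 members had a p under 0.05, all of them higher in Meis1-high, while 4.69% of all genes did so as higher and 8.25% as lower. The arrays of the gates did not overlap for 21 members that were higher (22.7% of all genes) and for 2 members that were lower, Irf8 and Irf1 (31% of all genes). Without Meis1-high replicate 2 the median fell to 0.55, with 25 of 39 members higher.

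The regulators did not move as a group. Stat2, the subunit of the interferon-stimulated factor that is particular to type I and III signalling, had levels of -0.62 and -1.03 on the pair of Meis1-high arrays, then -3.66 and -2.45 for Meis1-low and -2.92 and -2.17 for Meis1-negative. Its Meis1-high arrays were above all others. The difference from Meis1-low was 2.23 ± 0.69 (SE, n = 2 arrays in each gate, adjusted p = 0.288 by limma) and that from Meis1-negative 1.72 ± 0.69 (adjusted p = 0.453). Its partner Irf9 and the amplifier Irf7 also had both Meis1-high arrays on top, with differences from Meis1-low of 1.45 ± 0.60 and 1.93 ± 0.93. Irf7 also showed the disagreement of the Meis1-negative arrays, with levels of -2.65 and 0.15. Irf8, a factor best known for myeloid and B cell development, ran the other way, with levels of 1.10 and 1.18 in Meis1-high, compared with 2.89 and 2.04 in Meis1-low and with 0.22 and 2.25 in Meis1-negative. Both Meis1-low arrays exceeded both Meis1-high arrays, by 1.79 on slide 1 and 0.86 on slide 2 (difference -1.32 ± 0.81, adjusted p = 0.545), and its second probe gave -1.48. Irf1, the factor induced most directly by type II interferon, had levels of 3.62 and 3.87, then 4.29 and 4.04, then 3.52 and 3.97 in the same order of gates. The Meis1-high and Meis1-negative arrays overlapped, and a second Irf1 probe differed in sign between Meis1-high and Meis1-low (0.46 against -0.42).

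Among the sensors, Ddx58, which encodes the cytosolic RNA sensor RIG-I, had the largest differences between gates. The Ddx58 probe lies on chromosome 4 at 40156918 to 40156977 (mm9, as all probe positions here). It had levels of 1.54 and 1.95 in Meis1-high, against -0.77 and -1.37 in Meis1-low and 0.03 and 0.31 for Meis1-negative. The 3 gates did not overlap, with Meis1-high at the top and Meis1-low at the bottom. Ddx58 in Meis1-high exceeded that in Meis1-low by 2.82 ± 0.61 (adjusted p = 0.250), with 2.32 on slide 1 and 3.32 on slide 2. All 4 Ddx58 probes were higher in Meis1-high than in Meis1-low, by 1.80 to 3.14. The related helicase gene Ifih1, which encodes MDA5, had levels between 0.91 and 1.45 on all 6 arrays, and its gates overlapped. Dhx58, which encodes the helicase LGP2, and Zbp1, which encodes a sensor of Z-form nucleic acids, differed by 0.05 ± 0.84 and 0.39 ± 0.84 between Meis1-high and Meis1-low.

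The 2-5A synthetase family includes the makers of the oligoadenylates that activate RNase L. Its listed genes were higher in Meis1-high than in Meis1-low for all but Oasl1 (-0.29 ± 0.71). Oasl2 had levels of 4.21 and 3.59 on the pair of Meis1-high arrays, then 2.75 and 2.32 for Meis1-low and 0.91 and 2.60 for Meis1-negative. Both Meis1-high arrays were on top. Oas3 gave 2.58 and 3.08, then 1.54 and 1.69, then 1.17 and 2.44, again with both Meis1-high arrays on top. Oas2 had the widest spread, with 1.16 for Meis1-high replicate 2 and -5.77 for Meis1-negative replicate 1. It was well above background on only 1 of 2 arrays in Meis1-low and in Meis1-negative. The Oas2 probe used thus entered the test only through Meis1-high, the gate where it was high. Eif2ak2, which encodes the RNA-activated kinase PKR, had levels of 1.51 and 2.68 in Meis1-high, compared with 0.73 and 1.45 in Meis1-low and with 1.73 and 1.99 in Meis1-negative. Its Meis1-high arrays were above the Meis1-low arrays but overlapped the Meis1-negative arrays.

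The IFIT genes, whose products bind foreign RNA, did not move together. The probe of Ifit3 lies on chromosome 19 at 34663105 to 34663164 and that of Ifit2 at 34650244 to 34650303. Ifit3 had levels of 4.10 and 4.64 in Meis1-high, against 2.55 and 1.64 in Meis1-low and 1.20 and 2.82 for Meis1-negative. Its Meis1-high arrays stood above the other 4, by 2.27 ± 0.76 over Meis1-low (adjusted p = 0.300) and 2.35 ± 0.76 over Meis1-negative (adjusted p = 0.378). Ifit2, its neighbour on chromosome 19, had levels of -1.18 and 1.14 on the pair of Meis1-high arrays, then -0.99 and -0.18 for Meis1-low and 0.12 and 0.65 for Meis1-negative. The Meis1-high arrays were the lowest and the highest of the 6, so the gates overlapped. Ifit1 differed between Meis1-high and Meis1-low by 0.49 ± 0.79. Both starts of Ifit2 lacked the response element core in the windows searched, and Ifit1 and Ifit3 held it. Between Meis1-high and Meis1-low, Ifit2 differed by 0.57, near the 0.49 of Ifit1, and any part of the motif in the levels was not tested. The dynamin-like GTPase gene Mx1, which is truncated in most laboratory strains, was on top in Meis1-high with levels of -0.98 and -0.40, against -3.07 and -1.82 in Meis1-low and -4.70 and -1.17 for Meis1-negative, where it was well above background on 1 of 2 arrays. Mx2 had -5.17 and -1.61 in Meis1-high, with overlap in every comparison, and was well above background on 1 of 2 arrays in Meis1-high and in Meis1-negative. Rsad2, which encodes the antiviral enzyme viperin, had levels of 1.03 to 2.46 on the 6 arrays, with overlap in every comparison on the probe used. The 3 probes of Rsad2 differed in sign in every comparison. They ran from -0.26 to 0.76 between Meis1-high and Meis1-low and from -0.19 to 2.63 between Meis1-high and Meis1-negative. Cmpk2, its neighbour that encodes a nucleotide kinase, was 0.61 ± 0.70 higher in Meis1-high than in Meis1-low, and the 2 probes of Cmpk2 differed in sign.

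ISG15 is a ubiquitin-like protein that is joined to other proteins during the response. Isg15 had levels of 2.43 and 2.63 in Meis1-high, compared with 0.30 and 0.67 in Meis1-low and with 0.52 and 1.52 in Meis1-negative. The Meis1-high arrays were close to each other and above the rest, by 2.04 ± 0.64 over Meis1-low (adjusted p = 0.291). Usp18, the protease that removes ISG15 and dampens the type I receptor, had levels of 0.34 and 1.62, then 1.88 and 1.30, then -0.72 and 1.35 in the same order of gates. These overlapped, and the slides gave opposite signs between Meis1-high and Meis1-low (-1.54 and 0.32). Trim25, a ubiquitin ligase that acts on RIG-I, had levels of 4.28 and 5.30 in Meis1-high, against 5.15 and 4.79 in Meis1-low and 5.42 and 5.01 for Meis1-negative. It overlapped in all 3 comparisons.

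The IFITM proteins block viral entry at membranes. Ifitm3 had levels of 9.21 and 8.50 on the pair of Meis1-high arrays, then 8.03 and 7.15 for Meis1-low and 6.19 and 7.32 for Meis1-negative. Ifitm2 had levels of 4.84 and 3.58 in Meis1-high, compared with 2.93 and 2.39 in Meis1-low and with 3.25 and 2.48 in Meis1-negative. Both were on top in Meis1-high, with differences from Meis1-low of 1.26 ± 0.71 and 1.55 ± 0.71. The second Ifitm2 probe gave 1.63, but it is placed elsewhere on chromosome 7, at 54087914 to 54087973 against 148140912 to 148140971 for the first. Ifitm1 differed by 0.16 ± 0.62 and overlapped, as did Bst2, which encodes the virion-retaining protein tetherin, at 0.33 ± 0.73. The IFITM genes are close paralogs, so their probes may take up signal from one another, which was not tested.

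Of the interferon-induced GTPases, which act on the vacuoles of intracellular pathogens, Irgm1 and Gbp3 were on top in Meis1-high. Irgm1 (probe on chromosome 11 at 48679419 to 48679478) had levels of 3.26 and 3.07 in Meis1-high, against 0.95 and 1.23 in Meis1-low and 1.83 and 1.94 for Meis1-negative. The 3 gates did not overlap and the replicates were close to each other, with a difference between Meis1-high and Meis1-low of 2.07 ± 0.58 (adjusted p = 0.258). Igtp had levels of 1.63 and 2.83, then 3.17 and 2.64, then 2.83 and 2.38. Its slides disagreed in sign (-1.54 and 0.19). The response element core of Irgm1 and that of Igtp lie close to the start in the sequences printed above, while only Irgm1 had its Meis1-high arrays on top. Over the 31 members with a promoter window, the core was found in 9 of 17 members with both Meis1-high arrays on top and in 8 of the 14 others.

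The remaining members, 6 genes of mixed function, were all higher in Meis1-high than in Meis1-low, without overlap. Xaf1, which encodes a partner of the apoptosis inhibitor XIAP, had levels of 2.83 and 2.65 on the pair of Meis1-high arrays, then 0.46 and 0.43 for Meis1-low and 1.39 and 1.01 for Meis1-negative. Its gates were separate in the order high, negative, low, and Meis1-high exceeded Meis1-low by 2.29 ± 0.58 (adjusted p = 0.253). Rtp4, a chaperone gene that is strongly induced by type I interferon, had levels of 3.16 and 3.28, then 1.49 and 0.34, then 1.81 and 1.70 in the same order. This was the same order of gates, with a difference of 2.31 ± 0.65 (adjusted p = 0.258). Ifi44 had levels of 1.35 and 1.47 in Meis1-high, compared with -0.30 and -1.24 in Meis1-low and with -0.66 and 0.11 in Meis1-negative. It was on top in Meis1-high, by 2.18 ± 0.66 over Meis1-low (adjusted p = 0.279). Parp14, an ADP-ribosyltransferase gene, had levels of 1.10 and 1.91 in Meis1-high, against 0.19 and 0.19 in Meis1-low and 2.38 and 0.86 for Meis1-negative. It was lowest in Meis1-low, and all 3 of its probes were higher in Meis1-high than in Meis1-low, by 1.32 to 2.37. Against Meis1-negative the probes differed in sign, with -0.12 for the probe used and 1.87 and 0.73 for the others.

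**Figure D2:**
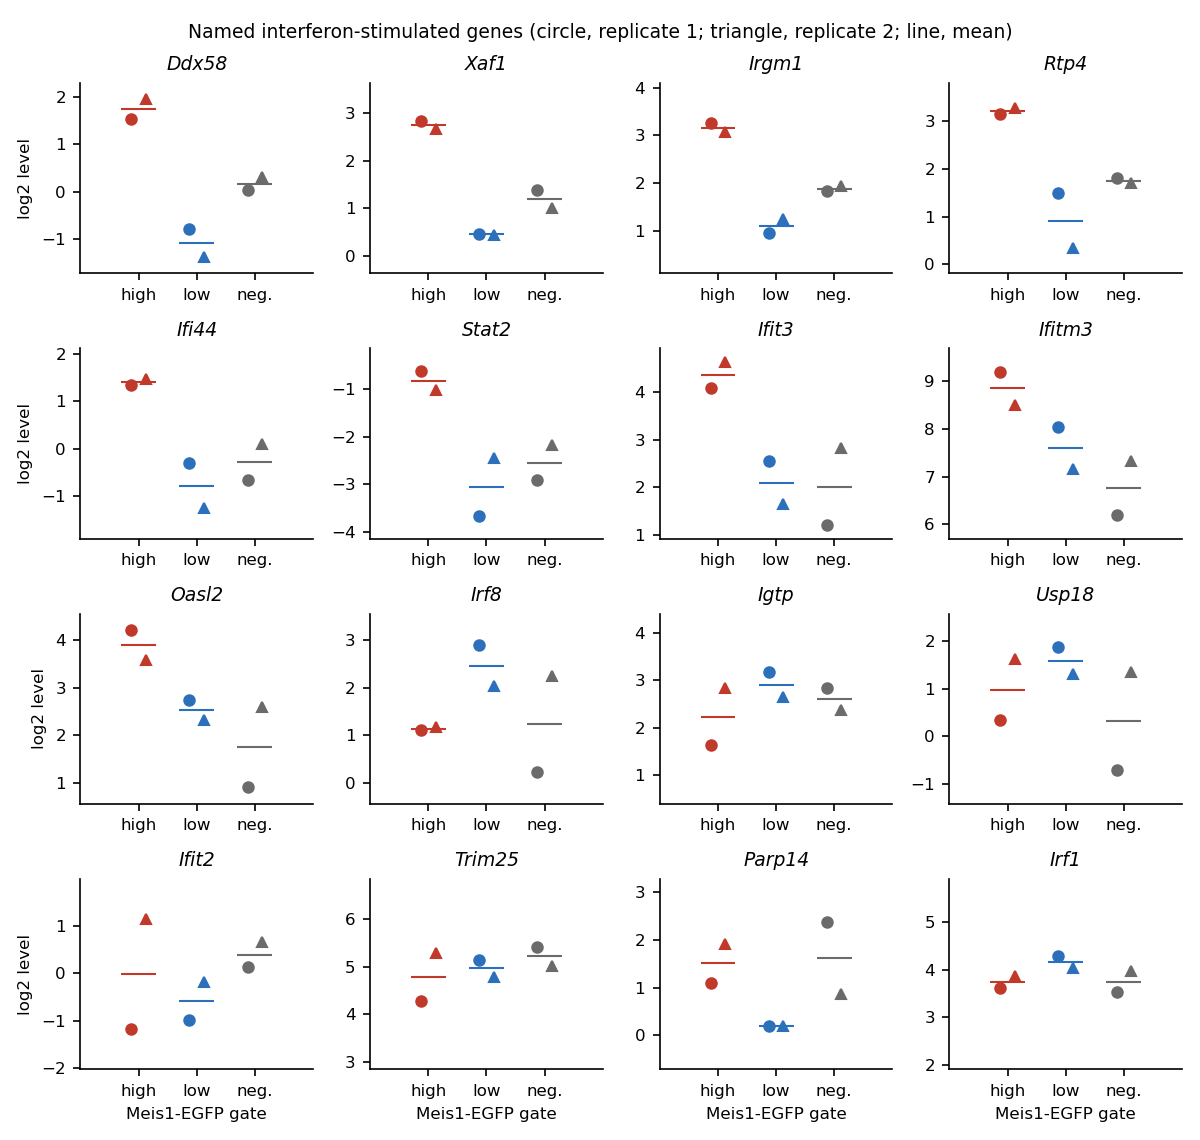
Log2 levels (vertical axes, each relative to the array's 75th percentile) of 16 interferon-stimulated genes in the Meis1-high, Meis1-low and Meis1-negative gates, with a circle for replicate 1, a triangle for replicate 2 and a line for their mean. Ddx58, Xaf1 and Irgm1 show 3 separate gates with Meis1-high at the top, and Irf8 has Meis1-low above Meis1-high.

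The second comparison was between Meis1-high and Meis1-negative cells, both of low forward scatter. It shares the Meis1-high arrays with the first, and the third shares arrays with both, so the comparisons are not independent of each other. Of the 39 genes, 30 were higher in Meis1-high, against 46.4% of all genes, with a median log2 difference of 1.08, against -0.10 over all genes. The slides gave 1.43 and 0.77, and 26 members were higher and 0 lower on both. Again limma called 0 members and 0% of all genes, with 1920 genes at an unadjusted p under 0.05, and the smallest adjusted p of a member was 0.378, for Ifit3. Unadjusted, 8 members had a p under 0.05, all higher in Meis1-high, while 5.71% of all genes did so as higher and 4.83% as lower. The arrays did not overlap for 20 members that were higher (19.3% of all genes) and for 0 that were lower (19.9% of all genes).

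After Ifit3, the smallest p-values in this comparison belonged to Ifitm3 (2.10 ± 0.71, adjusted p = 0.388), Oasl2 (2.15 ± 0.75, adjusted p = 0.403), Xaf1 (1.54 ± 0.58, adjusted p = 0.434), Ddx58 (1.57 ± 0.61, adjusted p = 0.438) and Ifi44 (1.68 ± 0.66, adjusted p = 0.443). For Xaf1 and Ddx58 the slides were alike, at 1.44 and 1.64 and at 1.51 and 1.64. For Ifitm3 and Oasl2 the difference on slide 1, of 3.02 and 3.31, was far above that on slide 2, of 1.19 and 0.99. The members farthest the other way were Trim25 (-0.43 ± 0.65), Ifit2 (-0.40 ± 0.87) and Igtp (-0.38 ± 0.68), and each had slides of opposite sign. A second Ifit2 probe was higher in Meis1-high, by 0.84.

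The size of this shift depended on which Meis1-negative array was used. In that gate, 8 of 39 members were higher on replicate 1 than on replicate 2, and the median of replicate 1 minus replicate 2 was -0.82. Without Meis1-negative replicate 1, on which the thymocyte markers were highest, the median difference from Meis1-high was 0.48, with 26 of 39 members higher. Replicate 2 carried markers of other cells too. The 7 B cell markers had a median level of -0.07 on it, against -1.70 on replicate 1. Without Meis1-negative replicate 2 it was 1.64, with 34 of 39 higher, and Irf7 was then 3.54 higher in Meis1-high. Mx1 was not well above background on the remaining Meis1-negative array, so its difference is a bound, at least 8.01-fold higher in Meis1-high. That fit takes the lone Meis1-negative array to vary as the other gates do. All 17 thymocyte markers that passed the filter were lower in Meis1-high than in Meis1-negative, with a median of -3.0. All 14 epithelial markers were higher, with a median of 1.54, which was 2.95 on slide 1 and 0.56 on slide 2, so they shifted in the direction of the members and, like them, more on slide 1. The part of either shift in the members' difference was not tested.

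**Figure D3:**
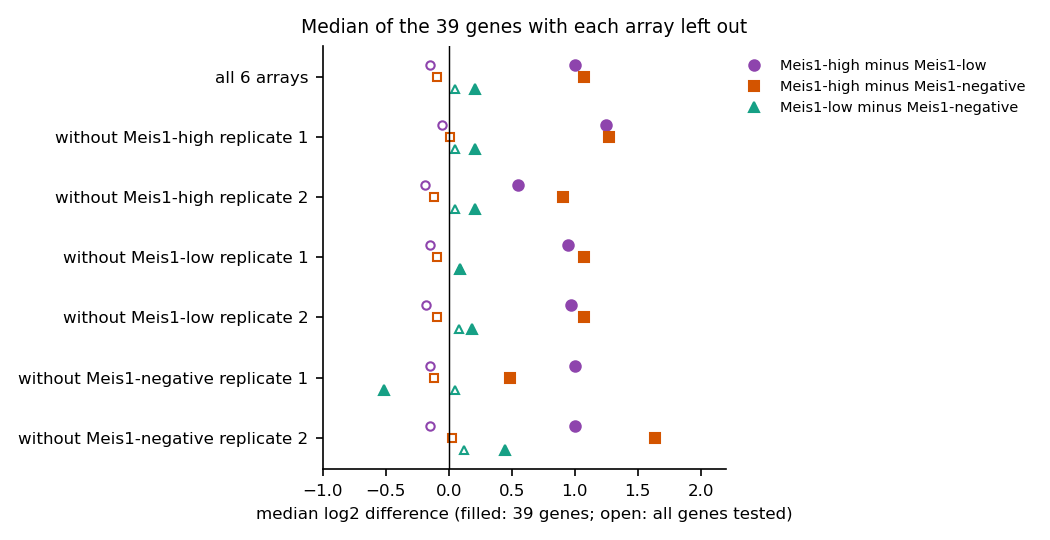
Median log2 difference (horizontal axis) of the 39 interferon-stimulated genes (filled symbols) and of all genes tested (open symbols) in the 3 comparisons, with all 6 arrays and with each array left out in turn. The Meis1-high medians stay above those of all genes, between 0.48 and 1.64, while that of Meis1-low minus Meis1-negative runs from -0.52 to 0.45.

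The third comparison, of Meis1-low with Meis1-negative cells, showed no common direction of the list. Here 23 of 39 members were higher in Meis1-low, against 52% of all genes, and the median was 0.21, against 0.05 over all genes. The slides had opposite medians, 0.67 and -0.43. No member and 0% of all genes were called, 1473 genes had an unadjusted p under 0.05, and 0 of the 39 members did, against 5.02% of all genes as higher and 3.06% as lower. The arrays did not overlap for 2 members that were higher in Meis1-low, Ifitm1 and Irf1 (23.4% of all genes), and for 9 that were lower (15.8% of all genes). The 9 were Eif2ak2, Bst2 and Gbp2 together with Ddx58 (-1.24 ± 0.61, adjusted p = 0.608), Parp14 (-1.44 ± 0.73, adjusted p = 0.608), Irgm1 (-0.79 ± 0.58), Rtp4 (-0.84 ± 0.65), Xaf1 (-0.75 ± 0.58) and Ifit2 (-0.97 ± 0.87). For Ddx58, Xaf1 and Irgm1, the level in Meis1-low was thus the lowest of the 3 gates on every array. Irf8 (1.23 ± 0.81) and Usp18 (1.27 ± 0.87) were higher in Meis1-low in the mean, by 2.67 and 2.59 on slide 1 and with -0.21 and -0.04 on slide 2. Without Meis1-negative replicate 1 the median of the list was -0.52, with 10 of 39 members higher, and without Meis1-negative replicate 2 it was 0.45. The cell markers differed here too. All 17 thymocyte markers that passed the filter were lower in Meis1-low, with a median of -3.15. All 14 epithelial markers were higher, with a median of 1.18, which was 2.34 on slide 1 and 0.25 on slide 2. Of 14 dendritic cell and macrophage markers, 12 were higher and 2 lower (median 1.37). The part of these shifts in the members' difference was not tested.

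**Figure D4:**
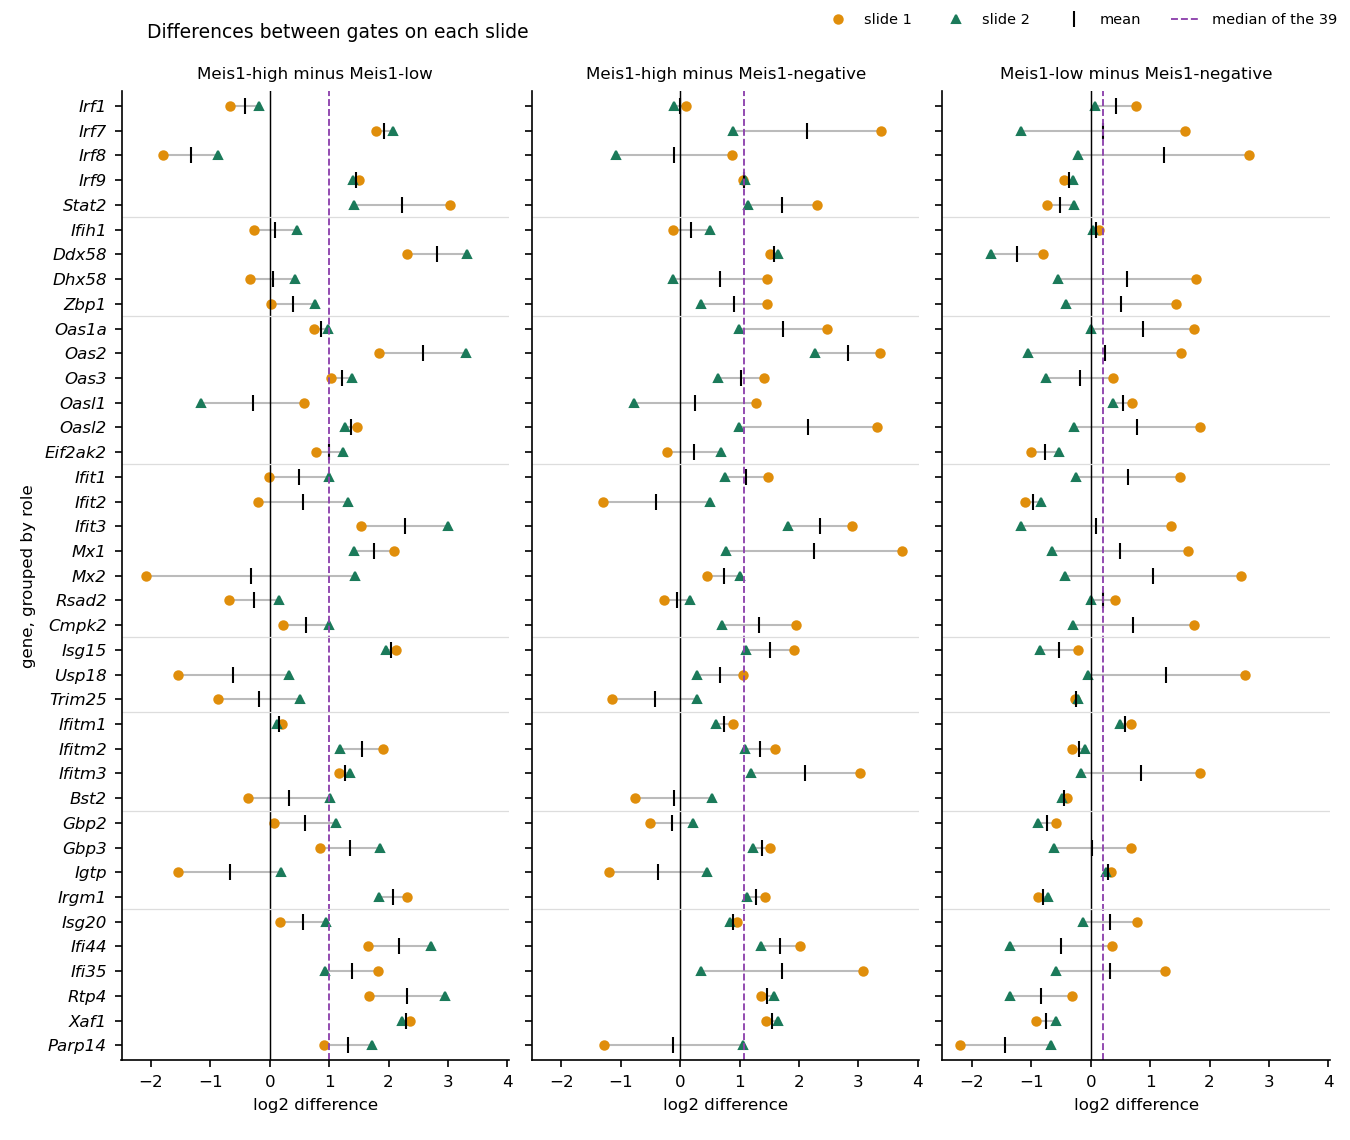
Log2 differences (horizontal axis) of the 39 genes, grouped by role, in the 3 comparisons, with a circle for slide 1, a triangle for slide 2, a bar for their mean and a dashed line for the median of the list. In Meis1-high minus Meis1-low most genes lie to the right of 0 on both slides, around a median of 1.0, and in Meis1-low minus Meis1-negative many genes have slides on opposite sides of 0.

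The other genes of the pathway were read from lists chosen by function. Of 13 interferon ligand genes with a probe, 7 passed the filter. Of these 7, 3 were higher and 4 lower in Meis1-high than in Meis1-low, with a median of -0.25. Against Meis1-negative, 4 were higher and 3 lower in Meis1-high, with a median of 0.46. Ifnb1, which encodes interferon beta (probe on chromosome 4 at 88168023 to 88168082), had levels of -4.91 and -3.36 on the pair of Meis1-high arrays, then 0.85 and -0.85 for Meis1-low and -2.08 and -0.53 for Meis1-negative. Meis1-high was the lowest gate without overlap, and Ifnb1 was well above background on 1 of its 2 arrays. The log2 difference of Ifnb1 was -4.14 ± 0.92 between Meis1-high and Meis1-low (adjusted p = 0.253 in limma) and -2.83 ± 0.92 between Meis1-high and Meis1-negative (adjusted p = 0.378). Ifnb1 thus ran opposite to the 31 and 30 of 39 members that were higher in Meis1-high in these comparisons. Aire, which marks mature medullary cells, had levels of 1.19 and 2.69 in Meis1-high, compared with 3.87 and 4.65 in Meis1-low and with 1.22 and 3.84 in Meis1-negative. Ifng, the type II ligand gene of lymphocytes, was also lower in Meis1-high, by -2.14 ± 0.92 against Meis1-low, and was well above background on 1 of 2 Meis1-high arrays. A probe for Ifnz, a type I ligand gene of the mouse, was well above background on both Meis1-high arrays (-1.32 and -2.90) and not well above background on the other 4, which makes it at least 4.39-fold higher than in Meis1-low (adjusted p = 0.250) and at least 3.71-fold higher than in Meis1-negative (adjusted p = 0.200). The fold is against the lowest signal well above background on the dim arrays, and the probe entered the test only through Meis1-high, the gate where it was high. The type I genes form a family of near-identical copies, so a probe may report on more than its named gene.

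Of 6 receptor genes, 3 were higher and 3 lower in Meis1-high than in Meis1-low, and of 5 Janus kinases and STATs 3 were higher and 2 lower. Ifnar2, which encodes a chain of the type I receptor, had levels of 1.69 to 2.37 on the 6 arrays and differed by 0.37 ± 0.60 between Meis1-high and Meis1-low. Ifnar1, the gene of the other chain, had -1.65 and 0.52 in Meis1-high, against -0.32 and 0.54 in Meis1-low and 0.68 and 0.74 for Meis1-negative. Its lowest array was Meis1-high replicate 1. Ifnlr1, which encodes the type III receptor chain that epithelia carry, had levels of -1.40 and 1.05 on the pair of Meis1-high arrays, then -2.58 and -2.41 for Meis1-low and -5.52 and 0.32 for Meis1-negative. It was 2.32 ± 1.75 higher in Meis1-high than in Meis1-low without overlap, and overlapped with Meis1-negative, where it was well above background on 1 of 2 arrays. Tyk2, which encodes the kinase bound to Ifnar1, was lower in Meis1-high than in Meis1-low without overlap, with a log2 difference of -1.76 ± 0.72 (adjusted p = 0.370), and was well above background on 1 of 2 Meis1-high arrays.

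Among 11 genes that sense nucleic acids or relay to interferon genes and passed the filter, 7 were higher and 4 lower in Meis1-high than in Meis1-low, and none was called. Irf5, a factor that drives interferon and cytokine genes in immune cells, had levels of -2.06 and -1.40 in Meis1-high, against 1.24 and 1.05 in Meis1-low and -1.40 and 1.18 for Meis1-negative. Meis1-high lay below Meis1-low by -2.87 ± 0.90 (adjusted p = 0.291). Tlr3, which encodes the endosomal receptor for double-stranded RNA, had levels of -1.94 and -2.36, then -4.02 and -3.59, then -5.94 and -3.98. Meis1-high was on top, by 2.81 ± 0.79 over Meis1-negative (adjusted p = 0.336), where Tlr3 was well above background on 1 of 2 arrays. Of 8 negative regulators, 5 were higher and 3 lower in Meis1-high than in Meis1-low. Socs3, a feedback inhibitor of cytokine receptors, gave 4.07 and 2.57, then 1.15 and 0.39, then 2.62 and 1.64, a difference of 2.55 ± 0.77 between Meis1-high and Meis1-low (adjusted p = 0.279).

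**Figure D5:**
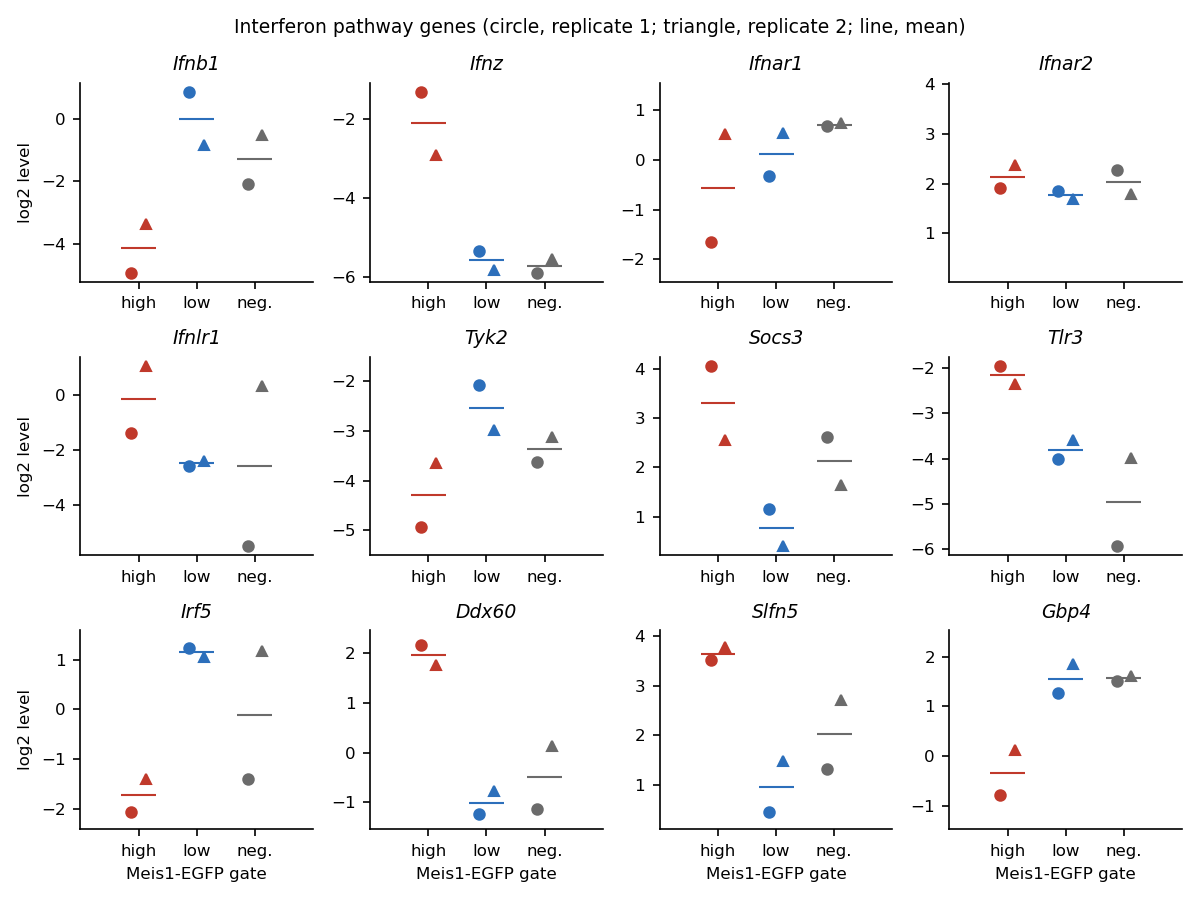
Log2 levels (vertical axes) of 12 genes of the interferon pathway in the 3 gates, with a circle for replicate 1, a triangle for replicate 2 and a line for their mean. Ifnb1 is lowest in Meis1-high, where Ddx60 and Slfn5 are highest, and the Ifnz probe was not well above background on the Meis1-low and Meis1-negative arrays.

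A second list of 37 measured stimulated genes outside the 39 was mixed. Between Meis1-high and Meis1-low, 21 were higher and 16 lower, with a median of 0.61. Between Meis1-high and Meis1-negative 21 were higher and 16 lower (46.4% of all genes higher), with a median of 0.18, against -0.10 over all genes. In Meis1-low, 13 were higher than in Meis1-negative and 24 lower (52% of all genes higher), with a median of -0.28, against 0.05 over all genes. None of these genes was called. Ddx60, a helicase gene of the RIG-I type, had levels of 2.16 and 1.77 on the pair of Meis1-high arrays, then -1.24 and -0.78 for Meis1-low and -1.13 and 0.14 for Meis1-negative. It stood above the other gates by 2.98 ± 0.68 (adjusted p = 0.253) and 2.46 ± 0.68 (adjusted p = 0.332). Slfn5 and Ifit3b, a close paralog of Ifit3, were higher in Meis1-high than in Meis1-low by 2.68 ± 0.73 and 2.75 ± 0.87. Gbp4 ran the other way, with levels of -0.80 and 0.12 in Meis1-high, compared with 1.26 and 1.85 in Meis1-low and with 1.52 and 1.62 in Meis1-negative. Its Meis1-high arrays were below all others, by -1.89 ± 0.64 and -1.90 ± 0.64. The smallest p-values for Meis1-low minus Meis1-negative were those of Lgals9 (-1.64 ± 0.70), Trim30a (-1.35 ± 0.61) and Gbp5 (-1.37 ± 0.66). The response element core was present in 16 of the 30 genes of this list with a promoter window, and the gamma-activated site core in 5.

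Markers of cells that are known to make interferons or to respond strongly to them were read beside these values. Of 9 genes of plasmacytoid dendritic cells, 7 were well above background on at least 1 array, while Siglech, a defining gene, was so on none. The 7 that passed the filter were split, with 1 higher and 6 lower in Meis1-high than in Meis1-low (median -0.26). Against Meis1-negative, 3 were higher and 4 lower (median -0.04). The median levels of the 9 genes lay between -0.45 and -0.31 in Meis1-high, between -0.81 and -0.35 in Meis1-low, and between -0.49 and -0.06 in Meis1-negative. Of 14 dendritic cell and macrophage markers that passed the filter, 13 were lower and 1 higher in Meis1-high than in Meis1-low, with a median of -1.82. Against Meis1-negative 5 were higher and 9 lower, with a median of -0.30 that was 1.05 on slide 1 and -1.59 on slide 2. Itgax, which encodes CD11c, was not well above background on either Meis1-high array. The pan-leukocyte list was lower in Meis1-high than in Meis1-low for 8 of 10 genes (median -1.10) and lower than in Meis1-negative for 9 of 10 (median -1.86). Of 6 B cell markers that passed the filter, 5 were lower in Meis1-high than in Meis1-low (median -1.21). Likewise 5 of the 6 were lower than in Meis1-negative, with a median of -1.97. Ptprc, the CD45 gene, had levels of -0.69 and 0.37 in Meis1-high, against -1.0 and 0.43 in Meis1-low and 5.16 and 3.17 for Meis1-negative, although all gates were sorted as CD45-negative. The 8 of 11 fibroblast and endothelial markers that passed the filter had a median difference of 0.86 between Meis1-high and Meis1-low, 6 of them higher and 2 lower. The part of any of these cell types in the members' differences was not tested.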

How the data were processed

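One-colour whole mouse genome arrays were read for 3 gates with 2 pools each. Per the file headers, the deposited intensity is a background-subtracted and detrended signal that is not scaled between arrays, with probe positions on mm9. The software was Agilent Feature Extraction 9.5.3.1, per the submitters' processing notes. For 15.5% to 28.2% of spots, the software used a surrogate value. The authors' deposited value table is on a log2 scale, centred on each probe's median, and correlates with the centred scanner signals at 0.9999 or above. It was used as an alternative.

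Outlier spots (53 to 78 per array) were left out, spots were averaged per probe, and the array's 75th percentile was subtracted. Probes well above background (13 SD of the background, per the file headers) on each array of any gate entered the test (26590, with 14584 left out), and the probe with the highest mean stood for a gene. Gates were compared with limma 3.58.1 in R 4.3.3, with 3 residual and 4.33 prior degrees of freedom and Benjamini-Hochberg adjustment over 18221 genes. The test was tried on simulated data with known differences. Promoters were read with pandas 2.3.3 and plots drawn with matplotlib 3.10.9 in Python 3.11.15.

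The members, the other lists and the naming rule were chosen with earlier results of these data known. The rule names, per comparison, the 6 members with the smallest p and the 3 farthest against the members' median, the 4 members with the highest mean signal, up to 3 genes of each pathway list, and a few fixed genes. A pathway gene that the rule names is not reported here. Other members were named to account for the whole list. Replicate number, slide and scan are the same block. Deviations of same-numbered arrays correlated at 0.209, 0.128 and 0.125 across genes, but each comparison has only 2 pairs and the labels state no pairing, so the block was an alternative. The other settings tried were normexp (offset 50) in place of the scanner's background correction, scaling by quantiles or by the median, no filter, a filter on 4 arrays, a floor, means of probes, a variance trend with a robust fit, array weights, the 4 compared arrays alone, outlier spots kept, and each array left out.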

Additional observations from a re-analysis of the deposited data

How the results depend on the processing

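The direction of the members' median in the comparisons of Meis1-high with the other gates held under every alternative run. Normexp background correction lowered the members' medians to 0.62, 0.70 and 0.067 in the 3 comparisons, and called 235, 304 and 122 genes in Meis1-high minus Meis1-low, Meis1-high minus Meis1-negative and Meis1-low minus Meis1-negative, and with it 3 members passed in the first (Ifit3, Rtp4 at 1.93 and Xaf1 at 1.89) and 2 in the second (Ifit3 at 2.05 and Ifitm3 at 1.92). The median in the third comparison also fell to 0.11 with median scaling and to 0.085 with dim signals raised to a floor. Median scaling called 0, 74 (6 of them higher) and 13 genes, and moved the median of all genes in the second comparison from -0.10 to -0.20. In that comparison raising dim signals to the lowest one well above background called 21 genes and the variance trend with a robust fit 4. With each array left out in turn, the members' median ran from 0.55 to 1.25, from 0.48 to 1.64, and from -0.52 to 0.45 in the 3 comparisons, the genes called from 0 to 951 in the second and from 0 to 1269 in the third, the members called from 0 to 2 in the second, and the members higher in Meis1-low than in Meis1-negative from 10 to 23. Of the named members' differences, 466 kept direction and side of the threshold under the alternatives, 4 passed it and 5 reversed. With each array left out, Usp18 ran from -1.25 to 0.034 against Meis1-low, and against Meis1-negative Trim25 ran from -0.94 to 0.083, Ifit2 from -1.56 to 0.76 and Igtp from -0.98 to 0.23, each turning without Meis1-high replicate 1. Ifit2 also reversed with the mean of its probes (0.22). The cause was not tested. With the replicate block (the slide), the medians stayed at 1.0, 1.08 and 0.21, and 0 genes were called in each comparison. In that fit 11, 12 and 0 of the 39 members had an unadjusted p under 0.05, against 2641, 2100 and 1676 of all 18221 genes. Same-numbered arrays shared a slide and a scan, and nothing in the labels says that they shared mice. The 2 arrays per gate and the dim probes, such as those of Oas2, Mx1 and Mx2, limit the precision.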
